A study of Homo sapiens with 2 samples.

Results

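The transcription factors described here are 10 genes of early neural tissue, namely the class III POU factors POU3F1, POU3F2 and POU3F3, the SOX factors SOX1, SOX3, SOX4 and SOX11, and the homeobox factors PAX6, SIX3 and HESX1. They were chosen by name, and every non-control probe whose RefSeq accession in the array design belongs to one of them was taken, which gave 12 of the 58201 probes on the array and 10 of the 22439 genes that could be named in this way. PAX6 had 3 probes and each other gene had 1. The messenger RNA came from H9 cells, an established human embryonic stem cell line, grown in the defined medium TeSR-E8. The study described both substates in cultures on Matrigel, a matrix of basement membrane proteins. It also kept H9 cells on vitronectin and moved cells of passage 35 to Matrigel. The matrix under each arrayed sample is therefore not certain here. The labels give no genetic change or drug for either group, and the study set the groups apart by colony shape and surface staining. Substate 1, at passage 35, formed tight, typical colonies with bright staining by R-10G, an antibody to a keratan sulphate of the cell surface, and almost no vimentin. Substate 2, at passage 50, formed colonies with gaps between cells, with weak R-10G and clear vimentin staining. RNA of each substate was hybridised to 1 single-colour (Cy3) Agilent array, so no difference below has a replicate check and no test between the substates was possible. Passage and substate cannot be told apart. Whether the arrayed cells were sorted is not given in the sources used here, so the share of each substate in either sample is unknown. In bulk RNA, fewer cells of a type and less RNA per cell cannot be told apart either.

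Values are given as processed signal, in scanner intensity units, with the error that the scanner software attaches to a spot. Differences are log2 differences, substate 2 minus substate 1, after the 75th percentile of all probes (a signal of 314 in substate 1 and 275 in substate 2) had been subtracted from each array. The scanner software flags spots that lie well above background, and it was set for 55.6% of the probes in substate 1 and 52.8% in substate 2. In all, 29883 probes carried the flag on both arrays and are called measured on both. Their differences had a median of 0.06 and an SD of 0.40, and 88.9% of them lay within 1.5-fold. Each member probe was printed once per array. Probes printed repeatedly gave an SD of 0.07 (291 probes) for a difference between single spots, a spread that holds only the noise of 1 hybridisation and nothing of the cells. Markers of embryonic stem cells, by which the labelled cell type was checked, were measured on both arrays for 18 of the 19 genes with a named probe, and FGF4 was not well above background on either. None of the 23 measured probes of this list differed by 2-fold. Over all probes measured on at least 1 array 1.55% were 2-fold or more higher and 1.67% lower, so a count of 0 lies near those shares. The 18 genes had a median difference of 0.08, beside 0.08 for the 16001 genes measured on both arrays. With loess centring the median of the 18 genes was -0.05, where that of all probes measured on both arrays was 0.02.

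Class III POU factors bind the octamer motif and related sites, often next to a SOX factor, and act in the epiblast, in neural progenitors and in neurons leaving the cell cycle. SOX1 and SOX3 belong with SOX2 to the SOXB1 group, which keeps progenitors of the neural plate undifferentiated. SOX4 and SOX11 belong to the SOXC group, which promotes neuronal gene expression in later precursors. PAX6 is an early gene of human neuroectoderm and the eye field, SIX3 patterns the forebrain and eye, and HESX1 is a repressor needed for the anterior forebrain and the pituitary.

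Of the 12 probes, 6 were well above background on both arrays (POU3F1, POU3F3, SOX3, SOX4, SOX11 and HESX1), 2 were so on the substate 2 array only (POU3F2 and SOX1), and 4 were so on neither (PAX6 and SIX3). All 6 probes measured on both arrays lay within 1.5-fold, and 5 of the 6 differed by less than the scanner error of the difference, which was 0.20 to 0.21. Their signals were lower on the substate 2 array in 5 of 6 probes before scaling. After scaling, 4 of the 6 differences lay below the median of all measured probes and 2 above it. The 6 genes had a median difference of 0.02, against 0.08 over all genes measured on both arrays. With loess centring the median of the 6 genes was -0.07, and that of all probes measured on both arrays moved from 0.06 to 0.02. With POU3F2 and SOX1 entered at their bounds the median of 8 genes was 0.07, as was that of all 16965 genes treated in the same way.

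Among the 8 member probes that were well above background on at least 1 array, POU3F2 alone was 2-fold or more higher in substate 2, where 1.55% of all such probes were, and none was 2-fold or more lower, where 1.67% were. By the Z-score of the study, which divides the deviation of a probe from the mean difference by the SD over all 58201 probes, POU3F2 and SOX1 passed the limit of 2 (3.03% of all probes) and SIX3 passed the limit of -2 (3.30%). Those Z-scores depended on detection. Past either limit were 0.98% of the probes measured on both arrays, 32.1% of those measured on 1 array and 9.35% of those measured on neither, and all 3 member calls came from the latter groups.

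**Figure D1:**
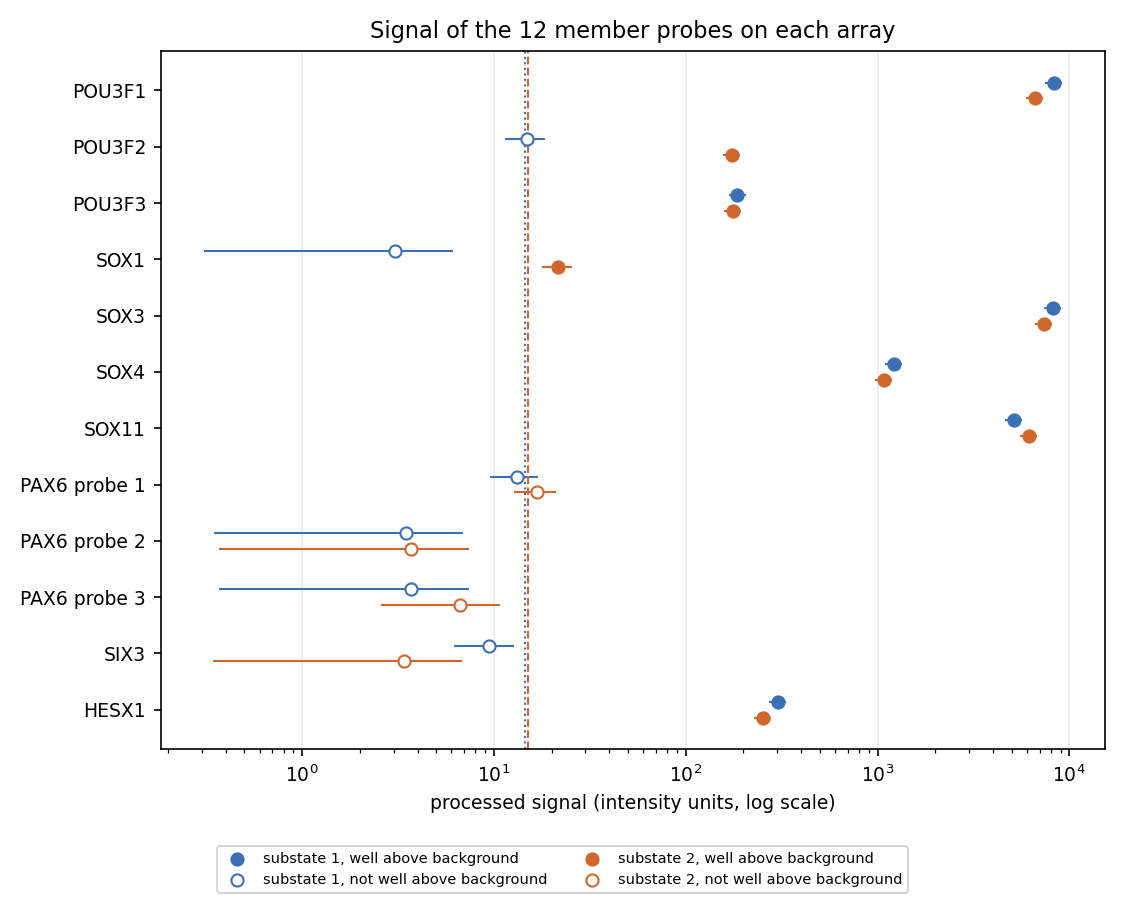
Processed signal (horizontal log axis, intensity units) of each member probe on the substate 1 and the substate 2 array, with the scanner error as bars, which are cut short where they would reach 0. Filled symbols are well above background and open ones are not, the vertical lines mark the lowest signal of a well above background probe on each array, and POU3F2 and SOX1 pair an open symbol in substate 1 with a filled one in substate 2.

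POU3F2, also called Brn-2 and used to turn fibroblasts into neurons together with other factors, gave the largest value of the set. Its probe had a signal of 14.9 ± 3.46 on the substate 1 array, which was not well above background, and of 174 ± 17.7 on the substate 2 array, which was. The probe was thus measured in substate 2 alone. Its bound was 13.3-fold higher in substate 2, a log2 bound of 3.73 and the second highest bound in that direction on the arrays. This bound equals the plain difference, whose scanner error was 0.37, because the dim signal lay above the lowest accepted signal of that array, 14.5. Rejected signals there reached 21.1, so the bound is not a strict lower limit. With normexp background correction, which raises dim signals before the logarithm, the bound was 3.21-fold, and 0.27% of all probes were then 2-fold or more higher. POU3F1, also called Oct-6 and a factor of the epiblast and of myelinating Schwann cells, had a signal of 8310.4 ± 831 in substate 1 and of 6598 ± 660 in substate 2. The difference of -0.14 was smaller than its scanner error of 0.20. POU3F3, or Brn-1, which acts with POU3F2 in cortical neurons, had 186 ± 19.0 in substate 1 and 176 ± 18.1 in substate 2, a difference of 0.11 against an error of 0.21. Both POU3F1 and POU3F3 were therefore well above background in each substate with signals whose errors overlapped after scaling, and they stood at percentiles 30.0 and 55.9 of the differences of all measured probes. POU3F4, the remaining class III factor, known from inner ear and hypothalamus, had 82.4 ± 8.92 and 87.8 ± 9.53, a difference of 0.28.

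The 250 bases before the start are given for POU3F2 and POU3F3, class III genes that differed in behaviour, for PANTR1, a noncoding gene that starts 2639 bases from POU3F3 on the other strand and whose values follow further on, and for SOX1, the other gene measured in substate 2 alone. The sequences are RefSeq's on GRCh38.p14 and read 5′ to 3′ on the strand of the gene, at chr6:98834324-98834573 (plus), chr2:104853865-104854114 (plus), chr2:104851477-104851726 (minus) and chr13:112066899-112067148 (plus). Capitals mark matches, on either strand, to the POU octamer ATGCAAAT, to ACAATG (a form of the SOX core), to CACCTG (an E-box bound by ZEB repressors) and to CCAAT. No matches of different motifs overlapped.
POU3F2: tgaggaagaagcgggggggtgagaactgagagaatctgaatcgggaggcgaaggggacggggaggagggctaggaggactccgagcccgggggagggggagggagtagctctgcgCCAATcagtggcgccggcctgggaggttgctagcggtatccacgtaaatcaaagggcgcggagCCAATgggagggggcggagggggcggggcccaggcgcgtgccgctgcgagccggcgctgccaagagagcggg
POU3F3: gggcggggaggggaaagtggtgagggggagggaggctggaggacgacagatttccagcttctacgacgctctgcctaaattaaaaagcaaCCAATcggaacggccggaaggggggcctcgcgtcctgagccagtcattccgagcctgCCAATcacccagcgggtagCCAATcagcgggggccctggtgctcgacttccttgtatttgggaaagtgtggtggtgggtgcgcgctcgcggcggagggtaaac
PANTR1: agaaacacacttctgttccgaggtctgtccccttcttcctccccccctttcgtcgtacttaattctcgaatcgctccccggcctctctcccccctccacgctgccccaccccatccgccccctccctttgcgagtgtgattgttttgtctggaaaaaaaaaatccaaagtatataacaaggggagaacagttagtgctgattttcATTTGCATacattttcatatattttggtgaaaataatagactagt
SOX1: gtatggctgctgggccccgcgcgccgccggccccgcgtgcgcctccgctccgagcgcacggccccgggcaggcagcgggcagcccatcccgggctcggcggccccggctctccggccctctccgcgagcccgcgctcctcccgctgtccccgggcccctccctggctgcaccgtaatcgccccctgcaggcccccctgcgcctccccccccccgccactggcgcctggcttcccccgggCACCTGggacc
The octamer occurred in 1.63% of the 35116 windows of the same length and in none of the first listed windows of the 8 members that had one, whereas the PANTR1 window held 1 match, ending 37 bases before the start. ACAATG occurred in 9.29% of all windows and in none of the 8. CACCTG occurred in 17.5% of all windows and in that of SOX1 only among the 8. CCAAT occurred in 32.0% of all windows and in 7 of the 8, all but SOX1, with 2 copies before POU3F2 and 3 before POU3F3. The first listed windows of the members were also rich in CpG. Their CpG counts ran from 8 (SOX4) to 36 (POU3F1) with a median of 22, against a median of 11 over all windows, and 7 of the 8 lay above the latter. PAX6 had 9 listed windows and HESX1 had 2, so these counts depend on which window is listed first. The second HESX1 window held 2 CpG at 43.6% GC and no CCAAT. Among the later PAX6 windows CpG counts fell to 3, and ACAATG and CACCTG were found. The shares over all windows take every listed window of a gene. The PANTR1 window held 9 CpG at 46.4% GC, the POU3F2 window 22 at 69.2% GC. These letters describe the windows and are not evidence of binding.

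SOX1, a marker of the neural plate once ectoderm becomes neural, was measured at a low signal in substate 2 alone. Its probe gave 3.06 ± 3.07 in substate 1, not well above background, and 21.7 ± 3.92 in substate 2, well above background. The latter lay close to the dimmest signals that the scanner accepted, since the lowest such signal was 15.0 and the highest rejected signal 24.9 on that array. As a bound SOX1 was at least 1.71-fold higher in substate 2, under the 2-fold limit, and this was rank 416 among the higher bounds, although its Z-score was 4.64. The plain log2 difference of 3.01 behind that Z-score came from the near-zero signal of the substate 1 array and carried a scanner error of 1.47.

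SOX3, the other SOXB1 gene of the set, is X-linked and acts in neural progenitors and the hypothalamus. It had 8219 ± 822 in substate 1 and 7352 ± 735 in substate 2. After scaling these lay together, with a difference of 0.03 that turned to -0.12 with loess centring. SOX2, the SOXB1 factor shared by pluripotent and neural cells, was measured in both substates with a difference of 0.26. Of the SOXB1 genes, then, SOX1 alone was found on 1 array only.

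SOX4 and SOX11, the SOXC genes of the set, were measured on both arrays. SOX4 had 1214 ± 121 in substate 1 and 1078 ± 108 in substate 2, a difference of 0.02 that turned to -0.06 with loess centring. SOX11 had 5149 ± 515 in substate 1 and 6172 ± 617 in substate 2. It was the only member measured on both arrays whose unscaled signal was higher in substate 2. The difference of 0.45, or 1.37-fold, exceeded its scanner error of 0.20 and stood at percentile 90.4 of all measured probes, short of the 2-fold limit. With normexp it was 0.16, within that error.

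PAX6 was not detected in either substate by any of its 3 probes. Their signals in substate 1 and substate 2 were 13.2 ± 3.71 and 16.8 ± 4.14 for the brightest, 3.46 ± 3.47 and 3.69 ± 3.70 for another, and 3.68 ± 3.69 and 6.63 ± 4.06 for the last. No fold is given for them, because none was well above background. SIX3 was likewise not well above background, with 9.45 ± 3.25 and 3.42 ± 3.44. Its Z-score of -2.14 therefore compared a pair of signals near background, and the scanner error of the difference, 1.53, exceeded the difference of -1.28 itself, which turned to 0.02 with normexp. HESX1, by contrast, was measured in both substates, with 304 ± 30.6 in substate 1 and 253 ± 25.7 in substate 2. Its difference of -0.07 was smaller than its error of 0.21. At this signal over background a low level of PAX6 or SIX3 was not detectable, which does not show that the transcripts were absent.

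**Figure D2:**
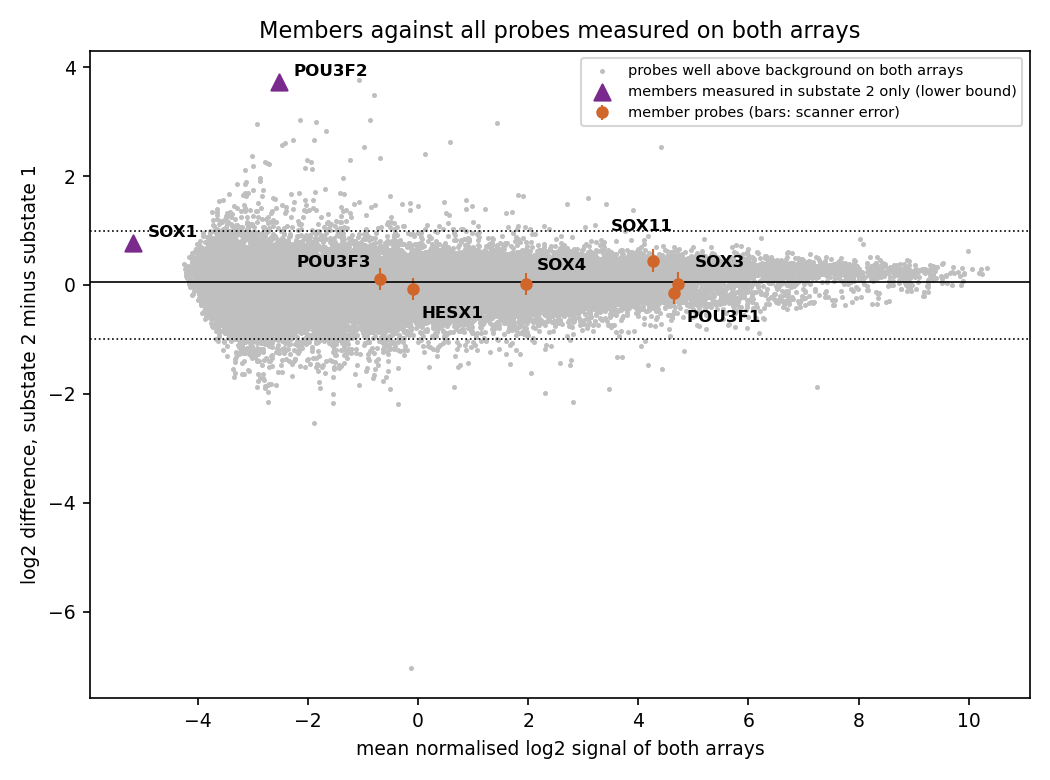
Log2 difference, substate 2 minus substate 1 (vertical axis), against the mean normalised log2 signal of both arrays (horizontal axis) for the 29883 probes measured on both arrays (grey) and for the members, with scanner error as bars. The 6 members measured on both arrays lie between the dotted 2-fold lines, SOX11 uppermost at 0.45. The triangles give POU3F2 at its bound of 3.73, which equals its plain difference, and SOX1 at 0.77.

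Noncoding genes beside the members were compared next, since several lie close to them. PANTR1, the neighbour of POU3F3 on the opposite strand, had 2 named probes, and both were brighter in substate 2. One was well above background on both arrays, with 24.9 ± 4.33 in substate 1 and 178 ± 18.3 in substate 2, a difference of 3.02 (8.12-fold) that was 1.51 (2.85-fold) with normexp. The other had 3.27 ± 3.30, not well above background, and 59.6 ± 6.97, at least 4.69-fold higher, or at least 1.88-fold with normexp. PANTR1 was thus far higher in substate 2 while the POU3F3 probe differed by 0.11 only. LINC01159, on the other side of POU3F3 with a start 18480 bases away, had 10.5 ± 4.09, not well above background, and 22.5 ± 4.61, at least 1.78-fold higher. MRPS9, a mitochondrial ribosomal protein gene and the nearest coding gene with a probe within 5 genes, differed by 0.11.

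SOX1-OT, a noncoding gene that starts 94839 bases upstream of SOX1 on the same strand, had 9.70 ± 3.60 in substate 1, not well above background, and 52.8 ± 6.47 in substate 2. That probe was at least 4.16-fold higher, or at least 1.73-fold with normexp, while a second probe was well above background on neither array (3.32 ± 3.34 and 3.84 ± 3.86). SOX1 and a probe of its neighbour were thus both measured in substate 2 alone. SOX2-OT, which holds SOX2 within an intron, had differences of 0.40 and 0.54 from its 2 measured probes, and CASC15, near SOX4, had -0.65 and -0.25. PAX6-AS1, SIX3-AS1, SOX21-AS1 and LINC01104 were well above background on neither array. Of the 8 measured probes in this list of noncoding genes 3 were 2-fold or more higher, beside 1.55% of all probes, and 0 were lower, and the 3 genes measured on both arrays had a median of 0.47, which was 0.83 for 5 genes with bounds entered. With normexp 1 of the 8 probes, of PANTR1, remained past 2-fold, beside 0.27% of all probes higher in that setting. The list had been drawn up with earlier results of these arrays known, and its share stands for these genes alone. Measured noncoding neighbours outside it did not pass 2-fold. MRPS9-AS2, near POU3F3, differed by 0.37 and 0.38, LINC01070, near SOX1, by -0.15, and LINC00632, near SOX3, by -0.17, 0.01 and -0.06, while ARHGEF3-AS1, near HESX1, was at least 1.25-fold lower.

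Coding neighbours of the members showed no difference of 2-fold. FBXL4, near POU3F2, differed by -0.00, and FAXC, farther along, by -0.43 and -0.59. UTP11 and FHL3, near POU3F1, differed by 0.04, 0.25 and 0.34. ELP4 and DNAJC24, near PAX6, differed by 0.17 and -0.28, and IL17RD and APPL1, near HESX1, by 0.35 and -0.13. SIX2, the paralogue beside SIX3, was well above background on neither array.

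**Figure D3:**
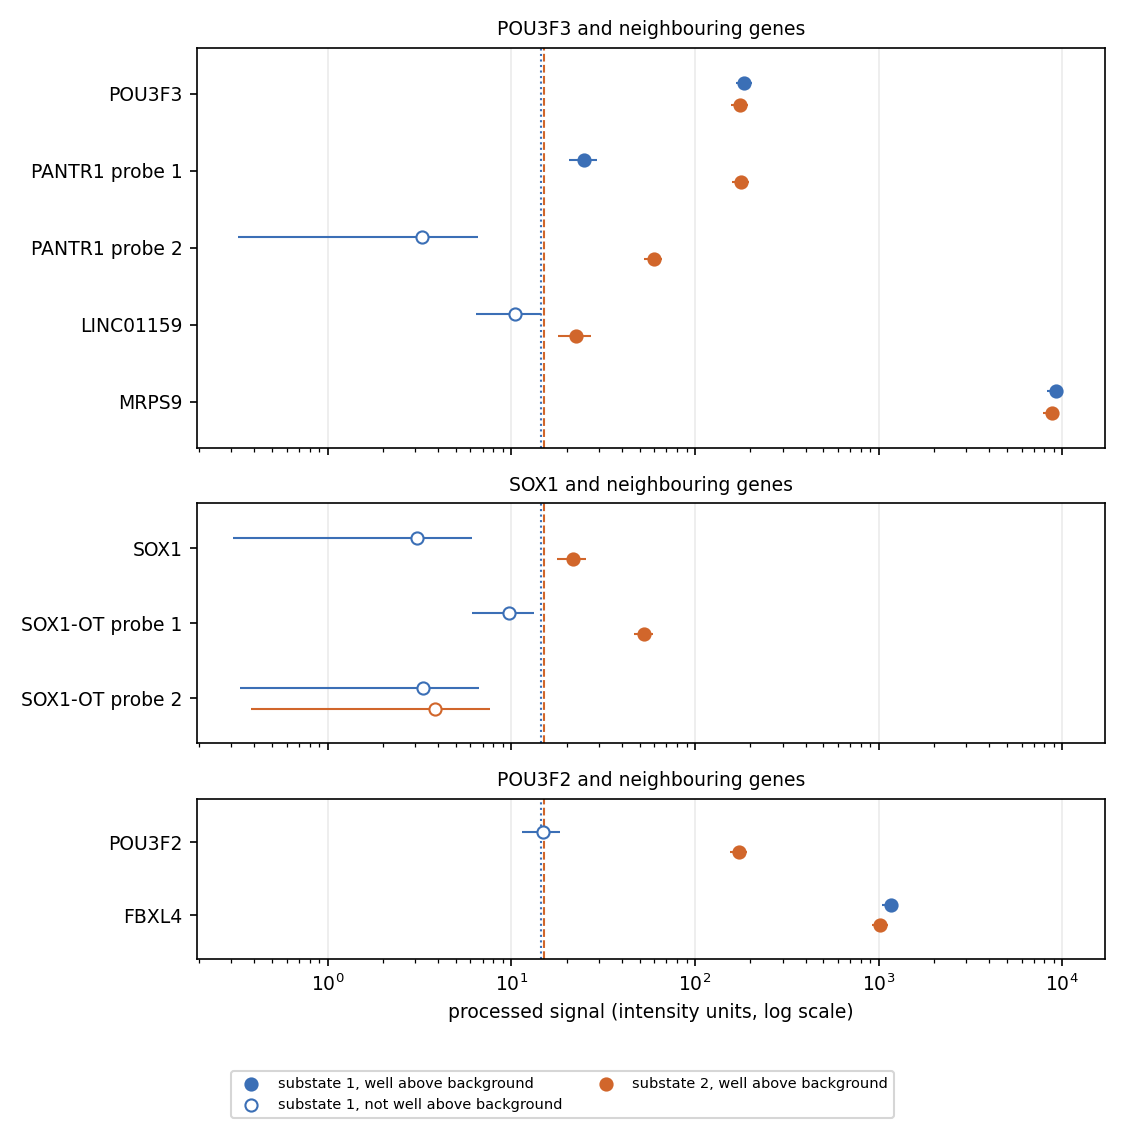
Processed signal (horizontal log axis, intensity units, scanner error as bars cut short where they would reach 0) of POU3F3, SOX1 and POU3F2 with neighbouring genes on the substate 1 and substate 2 arrays, where filled symbols are well above background and open ones are not. PANTR1 moves from 24.9 to 178 beside a POU3F3 difference of 0.11, SOX1-OT probe 1 moves from 9.70 to 52.8, and FBXL4, near POU3F2, differs by -0.00.

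Other genes of the members' families were mostly undetected or alike on both arrays. Of 40 listed relatives 38 had a named probe, 19 were measured on both arrays and 18 on neither. Among 25 measured probes 2 were 2-fold or more higher and 1 was lower, beside 1.55% and 1.67% of all probes, and the median of the 19 genes was 0.09. PAX8, a factor of thyroid and kidney, had 23.9 ± 3.92 in substate 1 and 128 ± 13.2 in substate 2, a difference of 2.61. SOX5 was at least 2.06-fold higher by 1 probe and differed by -0.27 and -0.38 by 2 others, so its probes disagreed. SOX30, a gene of the germ line, was at least 2.35-fold lower, with 40.3 ± 5.25 and 10.6 ± 3.76. With normexp only PAX8 remained past 2-fold, at 1.23, beside 0.27% of all probes higher in that setting.

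A list of 40 genes of the neural plate and neural progenitors had probes past the limit in 1 direction only. Among its 37 measured probes, 8 passed the 2-fold limit upwards in substate 2, which is 21.6% beside 1.55% of all probes, and 0 downwards. This list had also been drawn up with earlier results of these arrays known, so its share stands for these genes alone. The 8 probes belonged to 7 genes, of which the study itself had reported ZEB2 as higher in substate 2. NR2F1, a nuclear receptor that patterns the cortex, had 11.2 ± 3.66, not well above background, and 100.4 ± 10.7, at least 7.91-fold higher. ZEB2, a repressor active in neural progenitors and crest, was measured in substate 2 alone by all 3 measured probes, which gave bounds of at least 1.82-fold, 2.87-fold and 5.39-fold. LHX2, a selector gene of cortex and eye, was measured on both arrays, with 86.7 ± 9.57 and 381 ± 38.3, a difference of 2.32 that was 1.62 with normexp. LIX1 was at least 3.48-fold higher, with 3.58 ± 3.50 and 44.2 ± 5.82. DLK1, an imprinted Notch-related gene, differed by 1.69 by 1 probe and by 0.15 by another, so its probes disagreed. FABP7, the brain fatty acid binding protein of radial glia, had 376 ± 37.7 and 898 ± 89.9, a difference of 1.44. With normexp 3 of the 37 probes were 2-fold or more higher, beside 0.27% of all probes in that setting, and 0 were lower. The 3 were those of LHX2 (1.62), FABP7 (1.25) and NR2F1 (a log2 bound of 1.16). The other settings gave 8 to 10 higher, beside 1.55% to 1.76% of all probes.

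Over the 23 genes of that list measured on both arrays the median difference was 0.38, and 17 of them lay above the median of all genes, 0.08. The median of the 23 genes was 0.28 with quantile normalisation, 0.27 with loess centring and 0.26 with normexp. With bounds entered the median of 29 genes was 0.52. OTX2, a forebrain and midbrain homeobox gene also active in pluripotent cells, differed by -0.04, and NES, the progenitor intermediate filament gene, by 0.33 and 0.43. Others went the other way. OTX1, an anterior homeobox gene, had 125 ± 12.9 and 59.5 ± 6.70, a difference of -0.89, and PLAGL1, measured in substate 1 alone, was at least 1.17-fold lower. As many as 11 listed genes were well above background on neither array, among them EMX2, FEZF2 and LHX5, which act in the forebrain, and NEUROG2, a proneural gene. Other forebrain and eye genes were measured on both arrays, namely SIX6, a relative of SIX3 (0.26), RAX (1.00, just short of 2-fold and from 1 of its 2 probes), FEZF1 (-0.12) and SP8 (0.91 and 0.14). The higher probes were thus a minority, and genes of the forebrain and eye were found both among the measured and among the undetected.

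Genes described elsewhere as targets of the members gave a median of 0.39 over 8 measured genes, beside 0.08 over all genes measured on both arrays. That median of 8 genes was 0.31 with quantile normalisation, 0.30 with loess centring and 0.33 with normexp. The counts of these target genes stand beside 1.55% of all probes higher and 1.67% lower. Of 15 measured probes 1 was 2-fold or more higher, FABP7, which POU factors and PAX6 are known to regulate, and 1 was lower, MITF, a melanocyte and eye pigment factor, at least 2.07-fold lower with 35.4 ± 4.74 and 13.2 ± 3.59, which fell short of 2-fold with loess centring (a log2 bound of -0.99) and with normexp (-0.22). The TLE co-repressors, which SIX3 and HESX1 recruit, gave 0 of 8 probes past 2-fold and a median of 0.33 over 5 genes, which was 0.24 with normexp.

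Markers of other cell types were read beside these values, and their counts beside 1.55% of all probes higher and 1.67% lower. Neuronal markers had 2 of 15 measured probes 2-fold or more higher, MAP2 (1.03) and STMN2 (1.45), and 1 lower, in SYT1 (-1.22, with its other probe at -0.27). Their 12 measured genes had a median of 0.27, and the summed signal of all the listed probes, each divided by the 75th percentile signal of its array, was 56.0 in substate 1 and 69.3 in substate 2. The neuronal genes ELAVL3, ELAVL4, NEUROD1 and NEUROD4 were well above background on neither array. Neural crest markers had 0 of 12 probes past 2-fold, a median of 0.06 over 8 genes and summed signals of 18.4 and 17.4. With normexp STMN2 alone remained past 2-fold among the neuronal probes, and MAP2 fell just short with quantile normalisation (0.97) and loess centring (0.95). The part of neurons or crest cells in the POU3F2 and SOX1 values was not tested.

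Placode and surface ectoderm markers gave 1 of 9 probes higher (EYA2, 1.10) and 1 lower (GRHL2, -1.12), with a median of -0.25 over 6 genes and summed signals of 145 and 169. Mesoderm and endoderm markers gave 1 of 7 probes higher (MESP1, at least 2.21-fold) and 0 lower, with a median of 0.16 over 4 genes and summed signals of 5.72 and 4.52. Trophoblast and amnion markers gave 1 of 6 higher (CGA, at least 2.12-fold) and 1 lower (TFAP2C, -1.86), with a median of -0.37 over 3 genes and summed signals of 10.3 and 11.2. A summed signal is weighted towards the brightest probes of a list and also holds undetected ones. In each of these lists the sum and the median went in opposite directions, so the sums are not a measure of a cell type. Among all probes 1.55% were higher and 1.67% lower. None of these lists had more than 1 probe past 2-fold in either direction, and none had any with normexp, where the placode median was 0.04 and the trophoblast and amnion median -0.02.

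**Figure D4:**
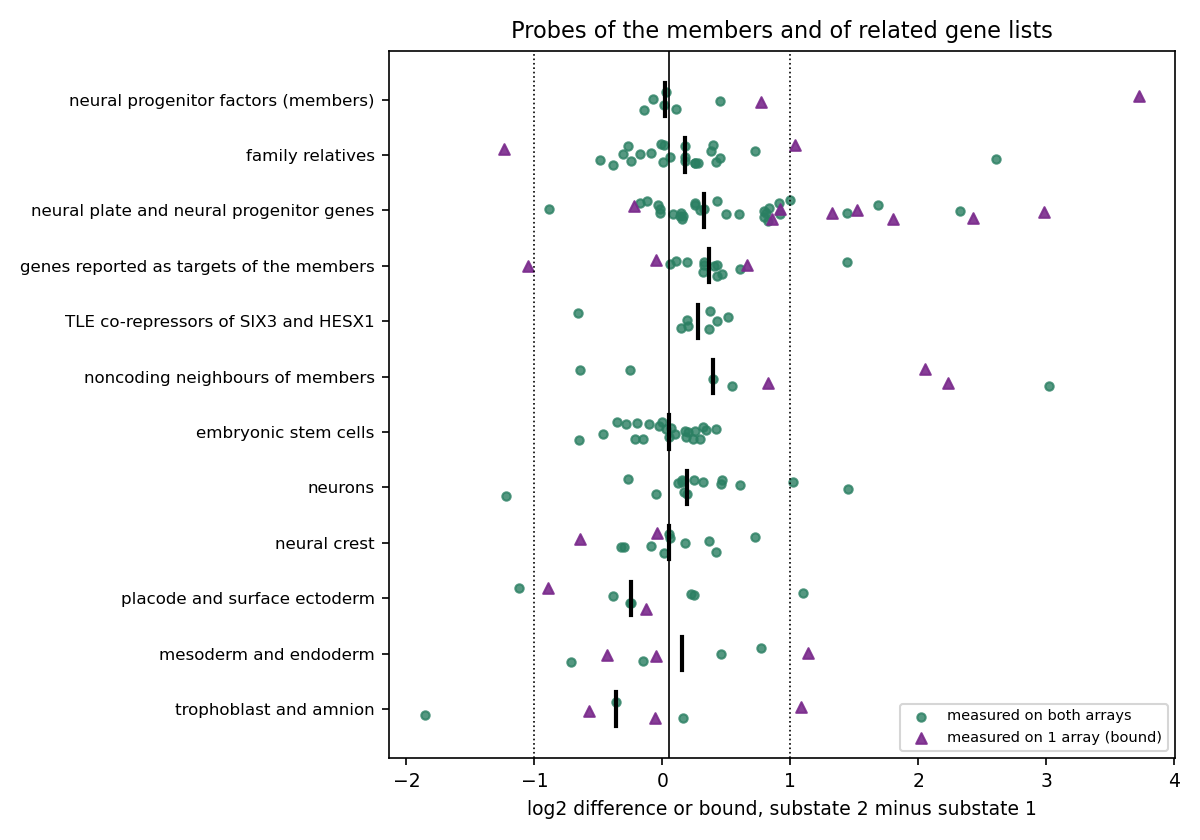
Log2 difference or bound, substate 2 minus substate 1 (horizontal axis), of every measured probe of the members and of each related list, with circles for probes measured on both arrays, triangles for bounds and a black bar at the median of the circles. The neural plate and neural progenitor list has 8 of 37 probes right of the dotted 2-fold line and 0 left of the other, whereas the embryonic stem cell list has 0 of 23 outside them. Among all probes 1.55% were 2-fold or more higher and 1.67% lower. The lists were drawn up with earlier results of these arrays known.

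The member values were set against 6 other ways of processing the arrays. Of the 36 resulting values of members measured on both arrays 35 stayed within the scanner error of the reported one, and the other, for SOX11, was that with normexp. POU3F2 kept a bound above 2-fold in all 6, from 3.21-fold to 13.7-fold. SOX1 kept a bound between 1.28-fold and 1.84-fold. The differences of SOX3 and SOX4 turned sign between settings and stayed within 0.12 of 0, while SOX11 ran from 0.16 to 0.49 and POU3F1 from -0.29 to -0.03.

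**Figure D5:**
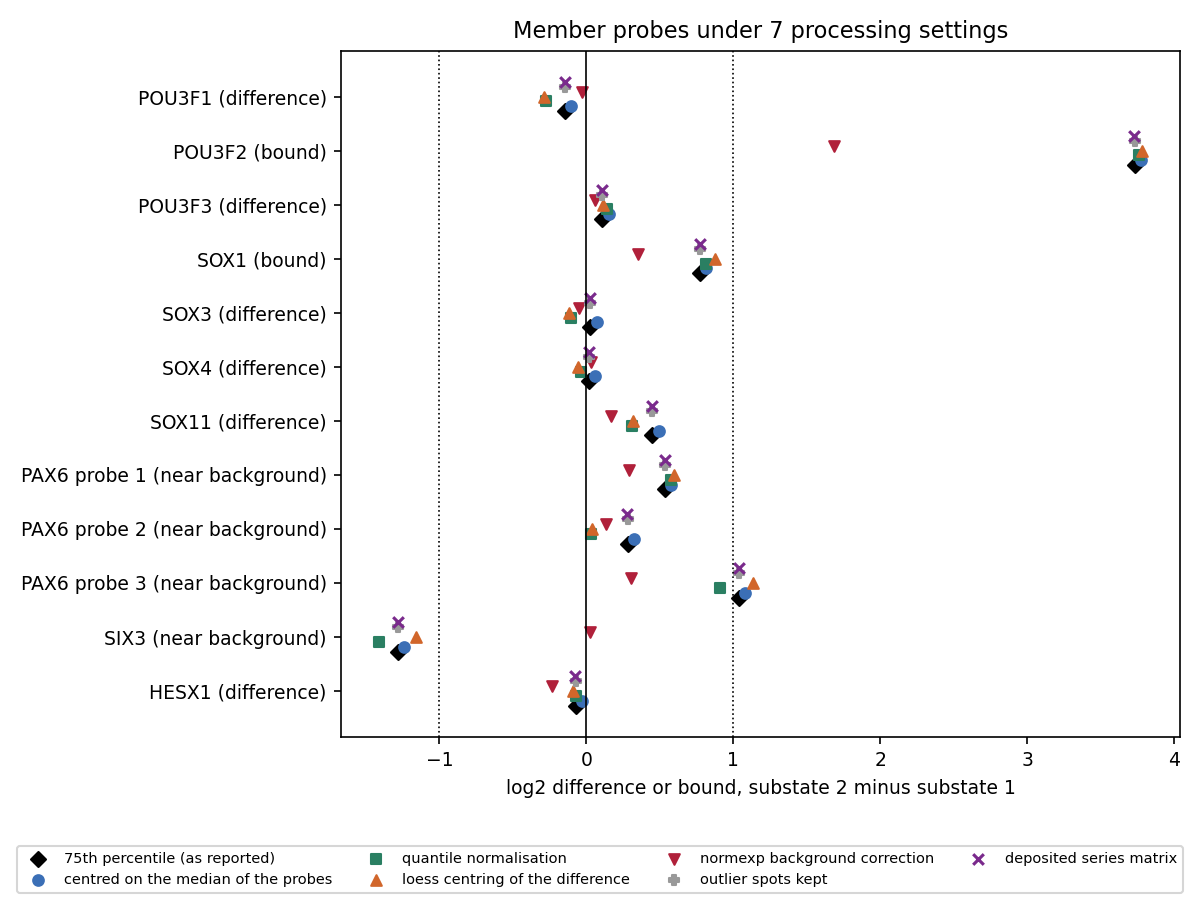
Log2 difference or bound, substate 2 minus substate 1 (horizontal axis), of the 12 member probes under the reported setting (diamonds) and 6 alternatives. POU3F2 lies at 1.68 with normexp and at 3.73 or more otherwise, and the probes measured on both arrays lie between the 2-fold lines in every setting.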

How the data were processed

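Total RNA of 1 substate 1 and 1 substate 2 sample was labelled with Cy3 and read on 1 Agilent array each. The authors deposited the scanner output, in which Feature Extraction 11.5.1.1 (protocol GE1_1105_Oct12, per the file headers) gave each spot a processed intensity with its local background subtracted, with an error. A table of log2 values for the whole series, which the authors deposited as well, was scaled to the 75th percentile and matched the differences computed here to within 2.6e-06 after 1 constant was removed.

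Intensities were set to 1 where lower (0 spots), log2 was taken, outlier spots were dropped, repeated spots were averaged per probe, and each array's 75th percentile over non-control probes was subtracted. A probe flagged as well above background on a single array was given a bound, its value there against the higher of its own dim value and the lowest value that was well above background on the dim array. Rejected signals reached 21.1 in substate 1 and 24.9 in substate 2, above the lowest accepted ones. A bound, also where worded as at least a fold, is therefore not a strict lower limit. For probes measured on neither array no fold is reported, although their differences enter the Z-scores, the plot of settings and the setting that includes dim probes. Gene values were means over probes measured on both arrays. Precision is limited by the number of arrays.

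The array design was annotated on hg19. Probes were named through RefSeq accessions in a table for GRCh38.p14, which named 31104 of 58201 probes, and others were not used by name. Promoter windows came from RefSeq and matched 8 of the 10 members, all but SIX3 and SOX11. The text names all 10 members, at most 6 genes per other list in order of size past 2-fold, 4 set relatives (SOX2, OTX2, NES and POU3F4), and neighbouring genes. Other genes named as undetected, and other examples without a 2-fold difference, were picked after their values were seen. The members and lists were chosen with earlier results of these data known. The settings tried besides were quantile normalisation, centring on the median, loess centring (span 0.3, statsmodels 0.14.6), normexp (limma 3.58.1, offset 50), outlier spots kept and the deposited series matrix, with other limits for the counts. Normexp was run on the median spot and background signals. Calculations used Python 3.11.15 and R 4.3.3 and were tested on simulated data.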

Additional observations from a re-analysis of the deposited data

How the results depend on the processing

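With 1 array per substate no spread between cultures could be set against any change of setting. No paired analysis was possible because there was a single array per group. The count of 1 member probe 2-fold or more higher (POU3F2) held under all 6 alternatives of scaling, background and source, and became 0 when only probes measured on both arrays were taken and 2 with a limit of 1.5-fold, which SOX1 passes by a bound from a dim signal. The share of all probes past 1.5-fold with bounds entered is not given here. Of those measured on both arrays 88.9% lay within 1.5-fold, so that limit is passed far more often than 2-fold. The count of 0 lower held throughout. The count of Z-scores of 2 or more stayed at 2, or was 3 with an SD from the median absolute deviation. The count of Z-scores of -2 or less fell from 1 to 0 with loess centring, with normexp and with Z-scores over the 33166 probes measured on 1 or both arrays, which leaves SIX3 out. The SIX3 difference was -1.28 as reported, -1.16 with loess centring and 0.02 with normexp. What moved it in those settings was not tested. The median difference of the member genes measured on both arrays was 0.02 as reported and ran from -0.07 (loess centring) to 0.07 (all probes, dim ones included), so it has no settled sign. Quantile normalisation gave -0.05. Normexp left 89 probes higher and 63 lower over the whole array, against 514 and 553, so bounds depend on the background correction. Signal over background limits what can be said of PAX6, SIX3 and SOX1.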
